A study of Mus musculus with 8 samples.

Results

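Blood vessels of the embryonic brain are built from endothelial cells, which form the tube, and from mural cells (pericytes and, on larger vessels, smooth muscle cells), which wrap it. Vessels grow into the ganglionic eminences from outside, so their cells do not descend from the neural progenitors of the region. Endothelial cells sprout under vascular endothelial growth factor (VEGF), are steadied by angiopoietin signals, recruit pericytes through platelet-derived growth factor B (PDGF-B), and seal their contacts with tight junctions as the blood-brain barrier forms. The genes described here are 9 markers of these cells: the endothelial receptor genes Kdr, Flt1, Tek and Tie1, the endothelial junction genes Pecam1, Cldn5 and Esam, and the mural cell genes Rgs5 and Pdgfrb. They were chosen by symbol as vessel cell genes in dissected tissue; the rule uses no measured value, but earlier results of these data were known when it was written. All 9 were listed among the 16913 genes of the authors' deposited table.

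The tissue was the lateral ganglionic eminence, the germinal region of the ventral forebrain that gives rise to striatal projection neurons, dissected at embryonic day 14.5 from mice of a mixed C57BL/6J and CD1 stock. The 4 control samples (Dlx5/6-Cre;Meis2F/+) came from littermates and carried the Cre driver with 1 floxed allele of Meis2, a homeobox transcription factor gene, so they were not wild type. The 4 Meis2-CKO samples (Dlx5/6-Cre;Meis2F/F), called mutants below, carried the same driver with 2 floxed alleles. Dlx5/6-Cre acts in the Dlx-expressing neural cells of the ventral forebrain, and vessel cells are not part of that lineage. Values are the authors' means per genotype, in an unnamed unit that appears to be scaled to gene length, and their log2 fold change, mutant over control, with its p-value. No spread between embryos, sequencing depth or per-sample value was used, so no SD, standard error or interval accompanies any value. A bulk level cannot tell fewer vessel cells from less RNA per vessel cell.

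Markers of the dissected tissue were present, and part of them were lower in mutants. Dlx1 and Dlx2, homeobox genes of the ventral forebrain, stood at 393 and 137 in controls and at 496 and 171 in mutants and did not pass. All 13 genes of the lateral ganglionic eminence list were listed, 6 above 0 and 7 below. An unadjusted p under 0.05 occurred in 10 of them, against 2.17% of all genes. The list holds the targeted gene and was chosen with earlier results of these data known, so this share is a description only. Among the 10, Dlx1, Dlx2, Dlx5 and Sp8 were higher in mutants and the others lower. Dlx5 and Sp8 were named after their values were seen and, like Dlx1 and Dlx2, did not pass. At an adjusted p of 0.05, which 0.78% of all genes passed, 4 fell, Meis2 and 3 striatal transcription factor genes. The 3 were Isl1 (57.9 and 12.5), Ebf1 (21.3 and 3.75) and Foxp1 (40.2 and 16.1, controls first, in the authors' deposited table). Meis2 fell from 204 to 140 in the authors' deposited table (adjusted p = 0.00195, log2 fold change -0.53), a value for the whole gene that does not separate transcripts lacking the floxed exons. Over all genes, the means summed to 547951 in controls and 543245 in mutants. The embryos' sex is not labelled, and the genotype means of sex-linked genes differed. Xist stood at 78.0 in controls and 256 in mutants and did not pass (adjusted p = 0.985 in the authors' deposited table). The Y-linked Eif2s3y stood at 50.5 and 14.0 and passed (adjusted p = 1.02e-16 in the authors' deposited table). Of the other Y-linked genes examined, Ddx3y and Kdm5d were also lower in mutants and passed, and Uty was lower and did not pass. The Y-linked genes that passed are part of the 0.78% of all genes. The part of sex in the vessel values below was not tested.

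None of the 9 vessel genes passed an adjusted p of 0.05 in the authors' deposited table, against 0.78% of all 16913 genes (132 genes). None had an unadjusted p under 0.05 either, against 2.17% of all genes. The smallest was 0.579 and the largest 0.994. Large p-values were common in the deposited comparison: the median over all genes was 0.760, and 80.2% of genes exceeded 0.5. The median p was 0.865 for the 9 genes and 0.776 for all genes within their range of levels. Large p-values of the vessel genes therefore do not show equal levels. The sources used here do not name the tool behind these p-values. The log2 fold changes of the 9 genes ran from -0.10 for Tek to 0.21 for Pecam1, with 5 above 0 and 4 below. When values were centred on the median gene, 3 lay above 0, since Flt1 and Cldn5 lay very close to 0. The median log2 fold change was 0.00497, beside 0.01 over all genes, of which 53.3% lay above 0. Summed over the 9 genes, the authors' means came to 66.9 in controls and 67.8 in mutants.

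**Figure D1:**
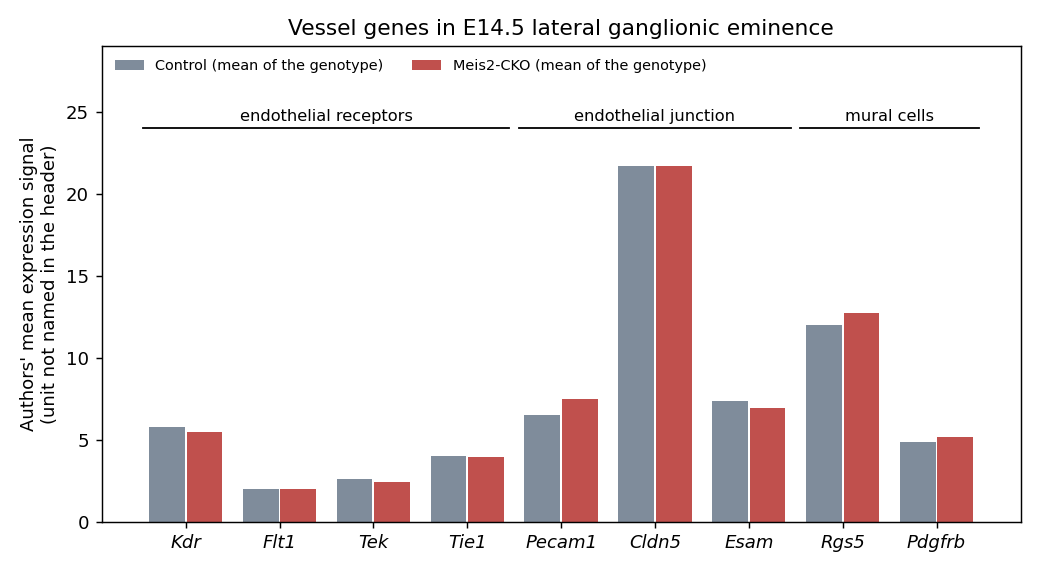
Authors' mean expression signal (vertical axis, unit not named in the header) of the 9 vessel genes in control (grey) and Meis2-CKO (red), grouped by role. Each bar is 1 deposited genotype mean without an error; the 2 bars of a gene lie close together throughout, and the widest relative gap is that of Pecam1 (6.53 and 7.51).

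The 4 receptor genes encode the tyrosine kinases through which endothelial cells read growth signals. Kdr, which encodes VEGFR2, the main signalling receptor for VEGF-A, had a mean of 5.78 in controls and 5.48 in mutants. The authors' deposited table gave it p = 0.878 and a log2 fold change of -0.06. Flt1 encodes VEGFR1, a receptor that also exists as a secreted decoy for VEGF. Its means were 2.02 and 2.01 (log2 fold change 0.00497, p = 0.994 in the authors' deposited table). The sign of that value depends on the scaling: the mean itself was slightly lower in mutants, and the value became negative under 3 of 4 alternatives. The deposited value sums the gene, so the secreted and membrane forms were not separated. Kdr and Flt1 both lie on the minus strand of chromosome 5 (75932827 to 75978458 and 147561604 to 147726011, GRCm38). The level of Kdr was 2.86 times that of Flt1 in controls and 2.73 times in mutants.

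Tek encodes TIE2, the angiopoietin receptor, and Tie1 its orphan partner. The Tek mean was 2.63 in controls and 2.41 in mutants, the lowest log2 fold change of the 9 genes in the authors' deposited table (-0.10, p = 0.865). For Tie1 the means were 3.98 and 3.93 (log2 fold change -0.00739, p = 0.988 in the authors' deposited table). Both lie on chromosome 4, Tek at 94739289 to 94874976 on the plus strand and Tie1 at 118471191 to 118490061 on the minus strand. Tie1 exceeded Tek 1.52-fold in controls and 1.63-fold in mutants. The means of all 4 receptor genes were thus lower in mutants, and their sum was 14.4 in controls and 13.8 in mutants. On the deposited log2 scale 3 of the 4 lay below 0 and Flt1 slightly above. None of these differences passed the test.

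Promoter sequence was examined as a feature that the choice of genes did not use, because ETS-family factors, which recognise the core GGAA, bind many endothelial promoters. RefSeq promoters (GRCm38.p6) of 6 of the 9 genes were examined here, Kdr, Flt1, Tek, Tie1, Cldn5 and Rgs5. Pecam1 and Esam had no promoter entry, and Pdgfrb was left out of the promoter counts below. The stretches below are the 100 bases just upstream of the first annotated exon in the direction of transcription, with GGAA, or TTCC for the opposite strand, in capitals. They are shown for the 2 VEGF receptor genes, for Tek, and for the members with the highest level in endothelium (Cldn5) and mural cells (Rgs5). Tie1 is not shown because an annotated exon overlaps its upstream window.
Kdr, chr5:75978459-75978558, minus strand: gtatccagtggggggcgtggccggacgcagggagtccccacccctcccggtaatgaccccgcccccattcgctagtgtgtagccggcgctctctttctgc
Flt1, chr5:147726012-147726111, minus strand: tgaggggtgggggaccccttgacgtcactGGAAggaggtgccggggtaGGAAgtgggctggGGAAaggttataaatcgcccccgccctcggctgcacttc
Tek, chr4:94739189-94739288, plus strand: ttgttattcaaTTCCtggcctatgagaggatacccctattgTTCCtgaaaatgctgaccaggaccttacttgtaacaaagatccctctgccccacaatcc
Cldn5, chr16:18776747-18776846, plus strand: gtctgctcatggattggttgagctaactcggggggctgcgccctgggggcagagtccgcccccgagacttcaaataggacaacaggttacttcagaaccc
Rgs5, chr1:169655401-169655500, plus strand: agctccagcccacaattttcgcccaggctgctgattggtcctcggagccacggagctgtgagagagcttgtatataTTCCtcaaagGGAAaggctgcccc
Over the 250 bases upstream of the RefSeq start, GGAA on either strand was present in 5 of the 6 promoters, and in 93.4% of all 32851 promoters in the table. The longer AGGAAG, which contains GGAA, was present on either strand in 2 of the 6 (Flt1 and Tie1) and in 29.5% of all promoters. The Flt1 stretch holds 3 GGAA matches and the Kdr stretch none, and the Kdr promoter has 4 matches elsewhere within the 250 bases. Over all 250 bases the Flt1 promoter also has 4, so these 2 genes differ only in the shorter stretch. Tie1 has the most matches, 7, and Cldn5 is the promoter with 0. A match is a string of letters and no measured site, and the expression values do not bear on it.

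The junction genes encode surface proteins that hold endothelial cells together. Pecam1, which encodes the adhesion molecule CD31 of endothelial cell contacts (also carried by platelets and leukocytes), had a mean of 6.53 in controls and 7.51 in mutants. That 1.16-fold difference was the largest among the 9 genes and had p = 0.579 in the authors' deposited table, with a log2 fold change of 0.21. Cldn5, the claudin of brain endothelial tight junctions, had the highest level of the members, 21.7 in both genotypes (log2 fold change 0.01, p = 0.953 in the authors' deposited table), and its sign turned when values were centred on the median of all genes with a mean of at least 1. Esam, an immunoglobulin-type adhesion molecule of endothelial tight junctions, stood at 7.39 in controls and 6.93 in mutants (log2 fold change -0.08, p = 0.834 in the authors' deposited table). Pecam1 lies on chromosome 11 (106654217 to 106750628), Cldn5 on chromosome 16 (18776847 to 18778262) and Esam on chromosome 9 (37528078 to 37538319). Within this group 1 mean was higher, 1 was lower and that of Cldn5 was nearly equal, and the sum moved from 35.6 to 36.1.

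Both mural genes had slightly higher means in mutants. Rgs5, a regulator of G-protein signalling abundant in brain pericytes, stood at 12 in controls and 12.7 in mutants (log2 fold change 0.10, p = 0.736 in the authors' deposited table). Pdgfrb, the receptor through which pericytes receive PDGF-B, stood at 4.87 and 5.16 (log2 fold change 0.09, p = 0.835 in the authors' deposited table). Rgs5 lies on chromosome 1 (169655501 to 169695813) and Pdgfrb on chromosome 18. Rgs5 was 2.46 times Pdgfrb in controls and 2.47 times in mutants. The summed level of the 2 mural genes was 16.9 in controls and 17.9 in mutants, and that of the 7 endothelial genes was 50.0 and 49.9. Whether mural and endothelial genes differ in their response was not tested.

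The order of levels was almost the same in both genotypes. In controls it ran Cldn5, Rgs5, Esam, Pecam1, Kdr, Pdgfrb, Tie1, Tek and Flt1, from the 71.5th percentile of all control means to the 28.5th, a 10.7-fold span. In mutants Pecam1 and Esam changed places and the other 7 kept their ranks. With genotype means only, the spread needed to separate neighbours in this order was not available, so neighbours are not said to differ. The order assumes that values are per length, which the header does not state: among protein-coding genes split into 5 bins of exon length, the bin of shortest genes had a median of 9.18 in controls and that of the longest 14.2.

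**Figure D2:**
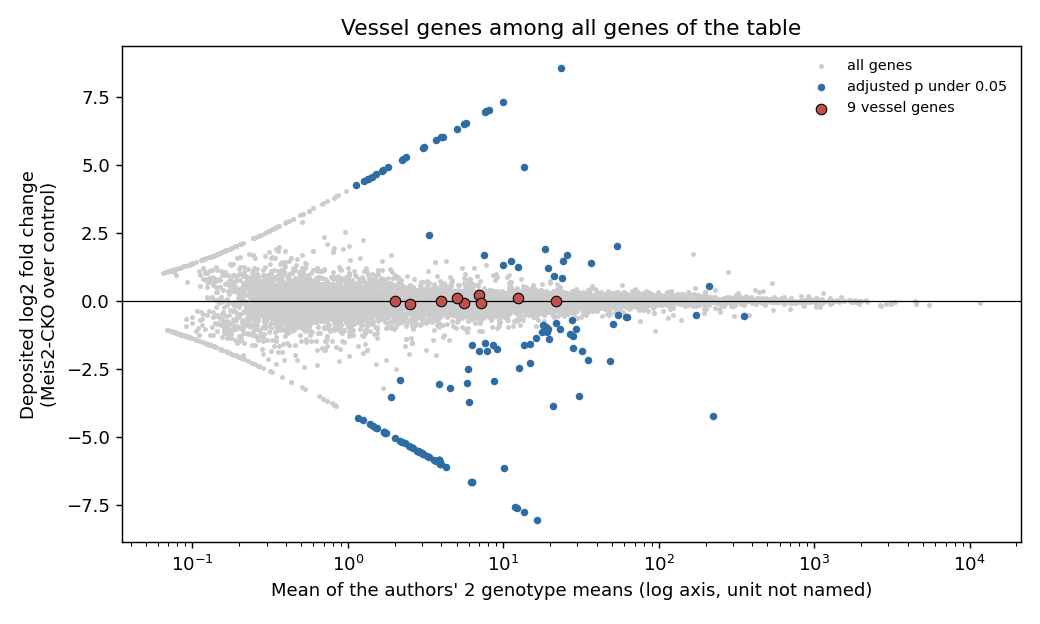
Deposited log2 fold change (vertical axis, Meis2-CKO over control) against the mean of the 2 genotype means (horizontal log axis, unit not named) for genes with a mean above 0.05. The 9 vessel genes (red) lie between -0.10 and 0.21 near the middle of the expression range, and genes with an adjusted p under 0.05 (blue) lie farther from 0.

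The size of change that the deposited test called at these levels gives a scale for the vessel values. Between the lowest and highest mean of the 9 genes (2.01 and 21.7) lay 7263 genes, of which 85 (1.17%) were called. What was called depended on the level. In the range of the 7 members with a mean below 10, 51 of 3196 genes were called, and the smallest difference among them was 3.04-fold, that of Rph3a, a synaptic vesicle gene (9.51 and 3.02, adjusted p = 0.0261 in the authors' deposited table). In the range of Rgs5 and Cldn5, 19 of 2246 were called, and the smallest difference was 1.85-fold, that of Socs2 (23.5 and 12.5, adjusted p = 0.0360 in the authors' deposited table). Both were named after their values were seen. No smaller difference was called at these levels, so the absence of calls among vessel genes does not show equal levels. The median absolute log2 fold change was 0.08 for the 9 genes and 0.10 for the 7263, and 21.7% of the 7263 had an absolute value at least as large as that of Pecam1.

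Other vessel genes were taken from 9 lists by role, 125 genes counted once without the 9 members. None passed an adjusted p of 0.05 in the authors' deposited table, against 0.78% of all 16913 genes. An unadjusted p under 0.05 occurred in 1 gene, against 2.17% of all genes. At these shares few calls would fall in a list of 125 genes, and fewer in each shorter list below. Of the 125, 73 lay above 0 (58.4%, against 53.3% of all genes) and 52 below, and the median was 0.04 on the log2 scale. The 1 gene with an unadjusted p under 0.05 was Tcf4 (95.5 in controls, 111 in mutants, p = 0.0373 in the authors' deposited table). It is a helix-loop-helix factor gene that neural cells also express. An absolute log2 fold change of at least 0.5 occurred in 3 of the 125, named after their values were seen. They were the TIE2 ligand gene Angpt1 (4.12 and 2.63), the tip-cell gene Esm1 (0.310 and 0.588) and the mural factor gene Tbx18 (0.268 and 0.5), none with a mean above 4.12 in either genotype.

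Genes of the VEGF, angiopoietin and PDGF families, some of them expressed by neural cells around the vessels, gave no call. The lists are not limited to ligands of the receptors among the 9 members. Among 8 genes of VEGF ligands, receptors and co-receptors, 6 lay above 0 and 2 below (median log2 fold change 0.06). Vegfa, the main ligand of Kdr and Flt1, stood at 58.0 in controls and 56.2 in mutants (log2 fold change -0.03, p = 0.811 in the authors' deposited table), Vegfb, a ligand of Flt1, at 24.2 and 24.9, and the co-receptor gene Nrp2 at 8.16 and 8.65. Of 6 listed angiopoietin and PDGF genes, 4 lay above 0 and 2 below, with a median of 0.03. Pdgfc stood at 4.58 and 4.14, Angptl2 at 3.58 and 3.98, and Pdgfa at 3.60 and 3.68. The TIE2 ligand gene Angpt1, named above after its value was seen, was the lowest of the 6 (4.12 and 2.63, log2 fold change -0.61, p = 0.259 in the authors' deposited table). Pdgfb, whose product is the ligand of Pdgfrb, was named after its value was seen and stood at 2.03 and 2.06. The hypoxia response list, which holds genes driven by low oxygen, had 9 of 14 above 0 and a median of 0.03, with Pgk1 at 214 and 221 and Ldha at 182 and 185.

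Further endothelial genes, on the cell surface and in the nucleus, gave no call. Of 20 listed surface and junction genes, 14 lay below 0 (median log2 fold change -0.07); Egfl7, a secreted endothelial factor, stood at 21.3 in controls and 17.7 in mutants, S1pr1, a sphingosine phosphate receptor gene, at 13.1 and 15.0, and Mcam, a vascular adhesion gene, at 10.2 and 11.1. Cdh5, VE-cadherin, which defines endothelium, was named after its value was seen and stood at 3.97 and 4.02. The 20 endothelial transcription factor genes split into 10 above and 10 below, with a median of -0.01 and with Mef2c at 13.9 and 11.5 and Lmo2 at 10.3 and 7.18. Mef2c is also a neuronal gene. The ETS factor genes Erg (1.68 and 1.81), Fli1 (1.41 and 1.26) and Ets1 (5.88 and 6.18) were named after their values were seen. No test compared the 2 lists with each other.

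Genes of the signals, contacts and transport of the maturing barrier gave no call. In the list of Wnt7 and transforming growth factor beta inputs, 15 of 18 genes lay above 0 with a median log2 fold change of 0.14, the highest median of the 9 lists. Ctnnb1, which encodes beta-catenin, stood at 615 and 667, Tgfbr1 at 38 and 39.6, and Wnt7a, a progenitor-derived ligand that acts on brain endothelium, at 23.0 and 26.3; neural cells express these genes too. The Notch list had 6 of 10 above 0 (median 0.10), with Notch1 at 45.6 and 51.2, Rbpj at 38.1 and 35 and Notch3, the mural Notch receptor gene that neural progenitors express as well, at 16.9 and 18.8. Among 17 listed genes of barrier junctions and transport 11 lay above 0 (median 0.05); Lrp1 stood at 69.1 and 68.5, the transferrin receptor gene Tfrc at 33.0 and 33.1, and the junction scaffold gene Tjp1 at 23.1 and 22.6. The glucose transporter gene Slc2a1 and the lipid transporter gene Mfsd2a, named after their values were seen, stood at 20.9 and 21.9 and at 13.1 and 14.6.

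The mural cell and basement membrane lists gave no call. Of 21 mural cell genes, 17 were listed and 11 lay above 0, with a median log2 fold change of 0.05. Gjc1, a connexin gene that neural cells may also express, stood at 46.6 and 47.8. Myl9, a myosin light chain gene of contractile cells, stood at 7.90 and 6.12. Acta2, Myh11, Cnn1 and Des, contractile genes of smooth muscle, matched no listed symbol and were not analysed here. The pericyte channel genes Kcnj8 (1.81 and 1.64) and Abcc9 (2.55 and 2.51) were named after their values were seen. Of 12 basement membrane genes, 6 lay above 0 and 6 below (median -0.02), with Agrn at 156 and 155, Sparc at 45 and 48.3 and Fn1 at 19.7 and 21.1, genes that neural cells may also express. Col4a1 and Col4a2, the collagen IV chains, named after their values were seen, stood at 18.3 and 17.3 and at 11.5 and 10.7.

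**Figure D3:**
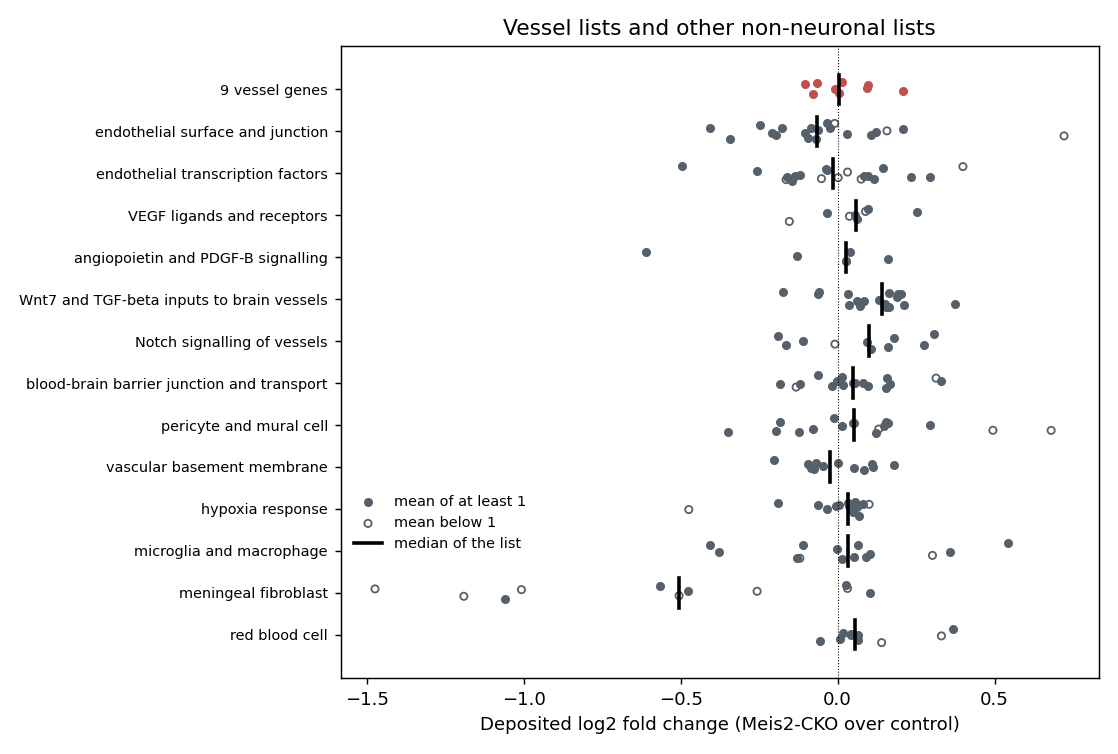
Deposited log2 fold change (horizontal axis, Meis2-CKO over control) of each listed gene in the 9 vessel genes (red), the 9 wider vessel lists and 4 lists of hypoxia, microglia, meninges and red blood cells. Black bars are list medians and open points are genes with a mean below 1; the medians lie between -0.07 and 0.14 except that of meningeal fibroblast genes (-0.50).

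Other cells that reach the tissue with or beside its vessels were compared in the same way. Microglia and macrophage genes had 8 of 14 above 0 and summed levels of 82.6 in controls and 83.8 in mutants, with Tyrobp at 11.9 and 10.8, C1qb at 10.8 and 11.2 and P2ry12 at 10.8 and 10.7. Red blood cell genes had 9 of 10 above 0 with a median log2 fold change of 0.05 and summed levels of 3039 and 3061. The globin genes Hba-a1 (1561 and 1563) and Hbb-bs (815 and 812) have near-identical relatives and are uncertain, and Hbb-y stood at 319 and 326. Meningeal fibroblast genes, which mark the sheath from which surface vessels enter, had 8 of 11 below 0 and a median of -0.50, with Col3a1 at 2.18 and 1.42, Pdgfra at 2.04 and 2.06 and Crabp2, which other cells also express, at 15.9 and 17.0. Col1a2 (1.82 and 0.802, p = 0.207) and Dcn (0.475 and 0.09, p = 0.286, both in the authors' deposited table) were named after their values were seen. So was Col1a1 (0.81 and 0.53), the gene that gave the median of the list. Like Dcn, it and several other genes of the list had means below 1 in both genotypes. The median thus rests on a gene at a very low level. The summed level of the list was 26.7 and 24.3, of which Crabp2 made up the larger part; without it, a choice made after seeing the data, the sum was 10.8 in controls and 7.38 in mutants. No member passed, and none of the listed markers of the 3 cell types was at 0 in either genotype. The part of these cells in the vessel values was not tested.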

How the data were processed

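RNA from 8 samples was sequenced. The submitters' processing notes name HISAT2 2.1.0, StringTie 1.3.1 and FastQC 0.11.5 and the builds mm10 and GRCm38.p2, with no role given. The deposited signal values are means per genotype made by the authors, per the file headers; their unit is not named. The log2 fold change, the p-value and its adjusted p were also computed by the authors, per the file headers, with a test that the sources used here do not name. The deposited adjusted p equals a Benjamini-Hochberg adjustment over all 16913 genes. Over 13286 genes with both means above 1, the deposited log2 fold change exceeded the log2 ratio of the means by a median of 0.0124, the log2 ratio of the column sums.

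The table holds 8 columns of library values whose names match no sample and show no genotype. They were not used, so the planned fit on libraries was replaced by the deposited comparison. Depth is unknown. Whether samples are separate embryos is not labelled, and p-values can reflect only the spread between them, as far as the deposited test uses it. How far they rest on each gene's own spread is not known. Pdgfra (2.04 and 2.06) and Pdgfb (2.03 and 2.06), with nearly equal means, both had p = 0.968 in the authors' deposited table. This pair was picked after its values were seen.

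The 9 genes and all lists were chosen with earlier results of these data known. Counts and medians of lists are descriptions, and 1 listed gene is not reported here. Named genes were the members, Meis2, the called genes of each list and, for lists with none, the 3 highest-level genes; others are stated to be named after their values were seen. Dlx1, Dlx2, Xist, Eif2s3y, Ddx3y, Kdm5d and Uty are named outside that rule, as markers of tissue and sex. Positions came from GENCODE M21 (GRCm38), matched by ID for 16861 genes. Adjustments and list counts were tested on simulated data. Figures were drawn with matplotlib 3.10.9 and values computed with pandas 2.3.3, scipy 1.17.1 and numpy 2.4.6 under Python 3.11.15.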

Additional observations from a re-analysis of the deposited data

How the results depend on the processing

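Alternatives were a pseudocount of 1 or 0.1 on the genotype means, centring on the median of genes averaging 1 or more, and rescaling the means to the same sum. Centring and rescaling shift all genes alike, and rescaling returns nearly the deposited scale by construction, so kept directions say little about stability. The values of single vessel genes lay between -0.12 and 0.21 under these settings, and 4 near 0 turned. Flt1 went to -0.00479 with a pseudocount of 1, to -0.00683 with 0.1 and to -0.00804 when centred, and Cldn5 went to -0.000137 when centred. Centring left 3 genes above 0 in place of 5. The number of genes past the threshold was 0 with Benjamini-Hochberg adjustment restricted to genes averaging 1 or more, with Benjamini-Yekutieli adjustment and at an unadjusted p of 0.05. No paired analysis was possible because the columns used are genotype means and carry no replicate numbers. Leaving out single samples, the replicate block and the other settings of a fit on libraries were not run for the same reason. The unknown depth and the lack of a spread between samples limit all values, and no gene at these levels that differed less than 1.85-fold was called.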

Other observations

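Genes that the table annotates with the Gene Ontology term for angiogenesis, a grouping added after the data were seen, extend the vessel lists to regulators made by any cell. The term covers 179 listed genes, 5 of them among the 9 vessel genes. None passed an adjusted p of 0.05 in the authors' deposited table, against 0.78% of all 16913 genes. An unadjusted p under 0.05 occurred in 1, against 2.17% of all genes. At these shares few calls would fall in a list of 179 genes. Of these genes 102 lay above 0 (57.0%, against 53.3% of all genes) and 77 below. Their median absolute log2 fold change was 0.09, beside 0.11 over all genes. Their summed authors' means were 3866 in control and 3887 in Meis2-CKO.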
